A study of Mus musculus with 3 samples.

Results

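Levels of 10 transcription factors and early-response genes were examined in RAW macrophages, a mouse cell line. The genes were the EGR factors *Egr1*, *Egr2* and *Egr3*, the NR4A factors *Nr4a1*, *Nr4a2* and *Nr4a3*, the KLF factors *Klf2*, *Klf4* and *Klf6*, and *Ier3*. They were found by symbol among the gene probes of the array and made up 10 of 26840 genes with a symbol and 15 of 56605 gene probes. Macrophages were given LPS alone (LPS), *L. rhamnosus* CRL1505 followed by LPS (CRL1505 + LPS) or *L. plantarum* CRL1506 followed by LPS (CRL1506 + LPS). The lactobacilli were present for 24 h at 50000000 cells/mL, and LPS, the agonist of TLR4, was used at 50 ng/mL in all groups. The study design gives 12 h of LPS and the sample descriptions give 3 h. RNA of each group was hybridised to 1 Agilent 1-colour array, on which the brightness of a probe rises with the amount of its transcript. As each condition had a single array, there are no replicates and no test could be run. The array of CRL1505 + LPS came from a different slide and scan run than the other two, which were on 1 slide, so an effect of CRL1505 and an effect of the slide cannot be told apart. Both strains were compared with the same LPS array, and cells without LPS were not analysed here.

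Immediate-early genes are transcribed within minutes of a stimulus, without the need for new protein, and their transcripts are short-lived. In macrophages, TLR4 signaling reaches them through MAP kinases, NF-κB and kinases that act on SRF and CREB. EGR proteins are zinc-finger activators that bind GC-rich sites. NR4A proteins are orphan nuclear receptors that are known to restrain NF-κB in macrophages. KLF2 and KLF4 are zinc-finger factors linked to a quiescent or alternatively activated macrophage, KLF6 is linked to inflammatory activation, and IER3 is an early-response protein that acts on cell survival and NF-κB signaling.

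Promoter windows of the NR4A genes, *Egr2*, *Klf4* and *Ier3* are shown because the factors that act on early-response promoters have short recognition motifs. Each is the 250 bases upstream of a RefSeq transcript start on GRCm38.p6, written 5′ to 3′ on the strand of the gene. Capitals mark matches, on either strand, to the CRE half-site TGACG, the EGR site GCGNGGGCG, the CArG box bound by SRF and the NF-κB motif.
*Nr4a1* (chr15:101266596-101266845, plus strand): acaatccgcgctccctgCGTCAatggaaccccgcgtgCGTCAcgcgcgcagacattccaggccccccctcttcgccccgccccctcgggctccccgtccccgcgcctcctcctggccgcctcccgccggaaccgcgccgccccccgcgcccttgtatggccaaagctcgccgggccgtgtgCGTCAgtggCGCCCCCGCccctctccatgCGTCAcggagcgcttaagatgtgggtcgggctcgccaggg
*Nr4a2* (chr2:57124004-57124253, minus strand): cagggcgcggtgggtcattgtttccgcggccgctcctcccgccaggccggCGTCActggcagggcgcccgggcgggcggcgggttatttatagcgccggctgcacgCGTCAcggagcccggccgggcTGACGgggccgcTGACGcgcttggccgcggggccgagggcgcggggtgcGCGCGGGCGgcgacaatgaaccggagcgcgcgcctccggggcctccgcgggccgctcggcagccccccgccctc
*Nr4a3* (chr4:48045055-48045304, plus strand): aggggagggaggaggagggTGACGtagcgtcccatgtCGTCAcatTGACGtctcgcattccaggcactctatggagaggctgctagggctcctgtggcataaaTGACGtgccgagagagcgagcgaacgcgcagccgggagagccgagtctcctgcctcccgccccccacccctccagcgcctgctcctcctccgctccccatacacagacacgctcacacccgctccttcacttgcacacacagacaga
*Egr2* (chr10:67537619-67537868, plus strand): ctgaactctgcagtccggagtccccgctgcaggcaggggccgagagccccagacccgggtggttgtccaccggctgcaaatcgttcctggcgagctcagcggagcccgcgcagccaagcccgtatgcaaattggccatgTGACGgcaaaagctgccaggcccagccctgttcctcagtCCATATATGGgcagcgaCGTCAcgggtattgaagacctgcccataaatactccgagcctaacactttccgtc
*Klf4* (chr4:55532476-55532725, minus strand): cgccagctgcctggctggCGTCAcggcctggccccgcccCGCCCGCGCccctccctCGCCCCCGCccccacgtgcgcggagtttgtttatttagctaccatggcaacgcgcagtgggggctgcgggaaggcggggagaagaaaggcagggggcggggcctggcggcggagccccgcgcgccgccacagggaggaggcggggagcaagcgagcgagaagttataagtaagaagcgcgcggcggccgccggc
*Ier3* (chr17:35821463-35821712, plus strand): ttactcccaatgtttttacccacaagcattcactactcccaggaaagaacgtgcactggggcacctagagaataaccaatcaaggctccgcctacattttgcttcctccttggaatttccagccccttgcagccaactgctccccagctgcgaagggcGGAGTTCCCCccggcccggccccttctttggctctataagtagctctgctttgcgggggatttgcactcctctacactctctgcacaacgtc
The table of promoters held 8 of the 10 genes in 12 windows, of which 5 belong to *Egr2*. Each of the 3 NR4A windows held 4 CRE half-sites, and those of *Nr4a1* and *Nr4a2* also held 1 EGR site. The *Egr2* window shown held 2 CRE half-sites and a CArG box. Of the other 4 *Egr2* windows, 2 overlap it and held the same matches, 1 held a CArG box alone and 1 held only 2 overlapping NF-κB matches. *Klf4* held 1 CRE half-site and 2 EGR sites, and *Ier3* held 1 NF-κB motif and none of the others. *Klf2*, not shown, held 1 CRE half-site and 1 EGR site, and the *Klf6* window held none of the 4 motifs. Over 32851 promoter windows of this length, 17.77% held a CRE half-site, 4.697% an EGR site, 1.467% a CArG box and 7.251% an NF-κB motif. The windows of these genes were GC-rich in part, with 80% G or C for *Nr4a2* against a median of 52.4% over all windows. These matches describe the letters of the windows and are not evidence of binding.

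**Figure D1:**
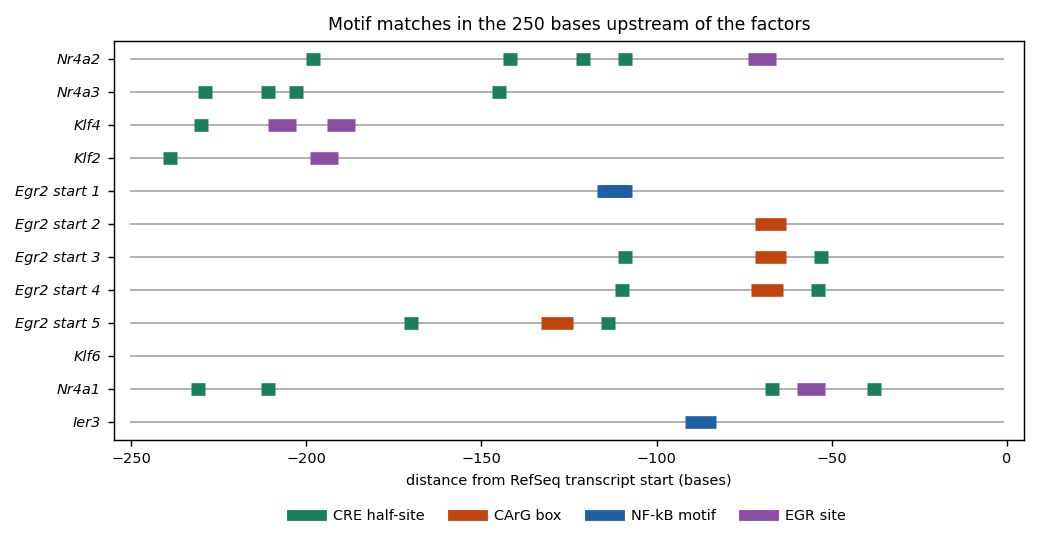
Positions of motif matches (coloured blocks) in the 250 bases upstream of each RefSeq transcript start, with distance from the start in bases on the horizontal axis and 1 line per window. The 3 NR4A windows each hold 4 CRE half-sites, and *Klf6* holds no match.

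With CRL1505 + LPS, 6 of the 10 genes were at least 2-fold higher than with LPS alone, namely *Egr1*, *Egr3*, *Nr4a1*, *Klf4*, *Klf6* and *Ier3*, and none was at least 2-fold lower. The median log2 ratio of the 10 genes was 1.10, with *Egr3* at its lower bound, while that of all 15603 genes compared was 0.01. Of all genes compared, 9.93% were higher by 2-fold or more and 8.41% were lower. With CRL1506 + LPS, *Egr1* was the only gene of the 9 that could be compared to reach 2-fold, and the median log2 ratio was 0.07, against −0.06 for all genes compared. Of the 16279 genes compared for CRL1506 + LPS, 5.67% were higher by 2-fold or more and 3.53% were lower. Over 8 scalings of the arrays, the main one and 7 others, the median of the 10 genes with CRL1505 + LPS lay between 0.46 and 1.39 and the count of higher genes between 2 and 6. The share of the genes at or past 2-fold was in the main scaling above the background for CRL1505 + LPS (60% against 9.93%). For CRL1506 + LPS it rested on *Egr1*. The 60% counts *Egr3*, which was detected with CRL1505 + LPS alone and so could not have counted as lower. When detection on every array was required, *Egr3* dropped out and 5 of the genes were at least 2-fold higher with CRL1505 + LPS. The background was then 7.66%.

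A log2 ratio here is the difference of log2 intensities after each array was shifted by the 75th percentile of its gene spots. The percentile was at an intensity of 743.1 on the LPS array, 517.0 on that of CRL1505 + LPS and 697.9 on that of CRL1506 + LPS, so equal intensities on the LPS and CRL1505 + LPS arrays correspond to a higher relative level on the latter. For scale, the SD of the log2 ratio between probes of the same gene had a median of 0.23 with CRL1505 + LPS against 0.22 with CRL1506 + LPS, and the SD of all genes' ratios was 0.75 and 0.54, respectively. These spreads lie within single hybridisations and include no variation between cultures. All 7 macrophage markers were well above background on every array, and none of the 3 epithelial markers was on any. The levels of the macrophage markers were not even, with intensities for LPS, CRL1505 + LPS and CRL1506 + LPS of 4544, 15264 and 8555 for *Adgre1* and of 120050, 30196 and 61675 for *Csf1r*. Single markers of T cells (*Cd3e*, *Cd4*) and of B cells (*Ms4a1*) were also above background on every array, while *Cd3g* and *Cd79a* were not on any. All 3 fibroblast and all 3 endothelial markers were well above background with CRL1506 + LPS. With LPS only *Pecam1* of these was, and with CRL1505 + LPS *Col1a2*, *Pecam1* and *Cdh5* were. *Col1a1* had intensities of 12.8, 6.64 and 113 and *Dcn* of 25.4, 19.6 and 129 for LPS, CRL1505 + LPS and CRL1506 + LPS, and their part in the results was not tested.

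**Figure D2:**
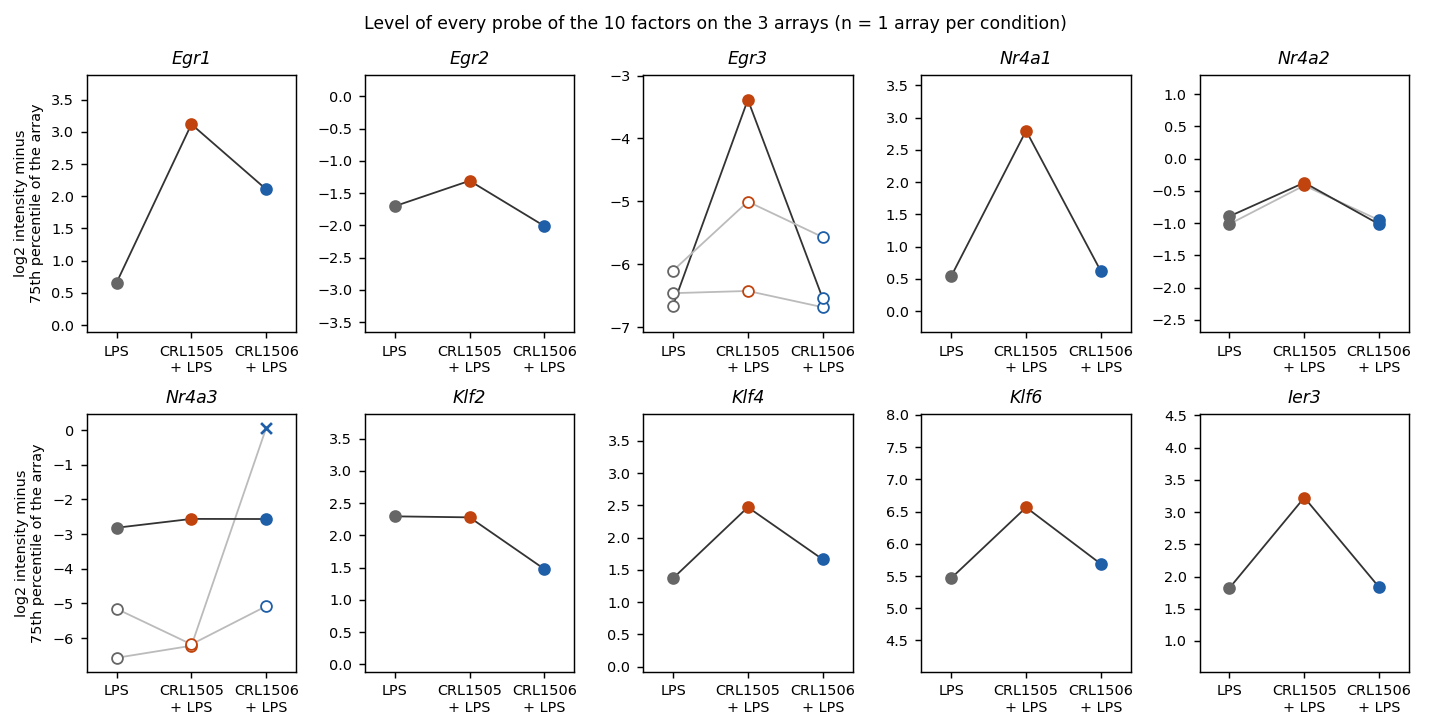
Level of each of the 15 probes on each array, as log2 intensity minus the 75th percentile of the array's gene spots, with 1 point per array and a line for each probe. Filled points are well above background, open points are not, the cross is a spot marked as an outlier, and dark lines are the probes used. At this scaling the used probe of every gene but *Klf2* stood highest with CRL1505 + LPS, that of *Nr4a3* by only 0.003 over CRL1506 + LPS.

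*Egr1* encodes the founding member of the EGR family. Its probe had an intensity of 1173 with LPS, 4487 with CRL1505 + LPS and 3006 with CRL1506 + LPS. Both lactobacilli arrays were thus above LPS, and CRL1505 + LPS was the higher of them. The log2 ratio was 2.46 for CRL1505 + LPS (5.50-fold) and 1.45 for CRL1506 + LPS (2.73-fold). It was at least 2-fold for both strains under all 7 other scalings of the arrays. Only 1.78% of all genes had a higher ratio with CRL1505 + LPS, and 2.75% with CRL1506 + LPS.

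*Egr2*, a related factor that is known to shape macrophage activation, had intensities of 228 with LPS, 209 with CRL1505 + LPS and 173 with CRL1506 + LPS. Its log2 ratio was 0.39 for CRL1505 + LPS and −0.31 for CRL1506 + LPS, so it did not reach 2-fold in either. The ratio for CRL1505 + LPS lay between −0.24 and 0.69 over the scalings and thus had no settled direction.

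*Egr3* was near the limit of detection. Its used probe (chr14:70481979-70482038 on mm9) had an intensity of 7.37 with LPS, 49.5 with CRL1505 + LPS and 7.48 with CRL1506 + LPS, and was well above background on the CRL1505 + LPS array alone. Against the lowest intensity well above background on the LPS array, 33.3, *Egr3* was at least 2.14-fold higher with CRL1505 + LPS. This bound was between 0.46 and 1.39 on the log2 scale over the scalings and reached 2-fold under 3 of the 7 others. No array had the other 2 *Egr3* probes well above background. The spot behind the value of 49.5 was itself uneven, with a mean pixel signal above the median by 0.23 on the log2 scale and 4 uneven spots among its 20 nearest, and whether this affects its intensity was not tested.

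*Nr4a1* encodes NUR77, a nuclear receptor induced early in activated macrophages. Its intensity was 1081 with LPS, 3595 with CRL1505 + LPS and 1070 with CRL1506 + LPS. It stood apart only on the CRL1505 + LPS array, since the other two values were close to each other. The log2 ratio was 2.26 for CRL1505 + LPS (4.78-fold, with 2.26% of all genes higher) and 0.07 for CRL1506 + LPS. The former was at least 2-fold under all 7 other scalings, and the latter stayed between −0.13 and 0.16.

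The other NR4A genes did not reach 2-fold. *Nr4a2*, which encodes NURR1, had intensities of 400.0 with LPS, 399.6 with CRL1505 + LPS and 345 with CRL1506 + LPS. The log2 ratio was 0.52 with CRL1505 + LPS and −0.12 with CRL1506 + LPS. Its second probe, with intensities of 368, 388 and 360 in the same order, gave 0.60 and 0.06. Both probes thus placed CRL1505 + LPS slightly above LPS, by less than 2-fold, and under spike-in scaling the used probe was slightly below, at −0.11.

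*Nr4a3*, which encodes NOR1, was measured by 3 probes that did not agree. The probe used had intensities of 105 with LPS, 87.5 with CRL1505 + LPS and 118 with CRL1506 + LPS, with log2 ratios of 0.26 and 0.25, neither of which kept its sign under every scaling. Another probe had intensities of 7.83 with LPS and 6.93 with CRL1505 + LPS, neither well above background, and of 732 with CRL1506 + LPS. That last spot was marked as an outlier by the software, its mean pixel signal lay 0.40 above the median on the log2 scale, and 9 of its 20 nearest spots were uneven. Its log2 ratio of 6.64 was therefore not used. The third probe, with intensities of 20.9 with LPS, 7.13 with CRL1505 + LPS and 20.7 with CRL1506 + LPS, was dim throughout. The sequences of the used probe (chr4:48064521-48064580 on mm9) and of the outlier probe, whose bases are spread over chr4:48080690-48083876, are given because they carry these different readings of the same gene, and capitals are not used in them.
used *Nr4a3* probe: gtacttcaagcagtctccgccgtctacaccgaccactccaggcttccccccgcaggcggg
outlier *Nr4a3* probe: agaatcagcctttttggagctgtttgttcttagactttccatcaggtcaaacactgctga

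*Klf2*, a factor known to hold back macrophage activation, had intensities of 3647 with LPS, 2509 with CRL1505 + LPS and 1941 with CRL1506 + LPS. After scaling it was level with LPS for CRL1505 + LPS (log2 ratio −0.02, or −0.65 to 0.28 over the scalings) and lower for CRL1506 + LPS (−0.82). The latter is a 1.76-fold difference that passed 2-fold under only 1 of the 7 other scalings and had the same sign under each of them. On the LPS array, 8 of the 20 spots nearest to that of *Klf2* were uneven, so both of its ratios to LPS rest on a spot in an uneven area.

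*Klf4*, which takes part in alternative activation, had intensities of 1920 with LPS, 2869 with CRL1505 + LPS and 2210 with CRL1506 + LPS. Its log2 ratio was 1.10 for CRL1505 + LPS (2.15-fold) and 0.29 for CRL1506 + LPS. *Klf6*, linked to inflammatory activation, had intensities of 32882 with LPS, 48934 with CRL1505 + LPS and 35932 with CRL1506 + LPS. Its log2 ratio was 1.10 for CRL1505 + LPS (2.14-fold) and 0.22 for CRL1506 + LPS. Both genes were thus just past 2-fold with CRL1505 + LPS. *Klf4* stayed at or past 2-fold under 5 of the 7 other scalings and *Klf6* under 1, and neither changed sign. The software marked the local background of the *Klf4* spot as an outlier on the LPS and CRL1506 + LPS arrays, and its part in the ratio was not tested.

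*Ier3* had intensities of 2628 with LPS, 4834 with CRL1505 + LPS and 2485 with CRL1506 + LPS. The log2 ratio was 1.40 for CRL1505 + LPS (2.64-fold) and 0.01 for CRL1506 + LPS. As for *Nr4a1*, the LPS and CRL1506 + LPS arrays gave close values and CRL1505 + LPS stood above them. The ratio for CRL1505 + LPS was at least 2-fold under 6 of the 7 other scalings, with 0.77 as the lowest value.

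**Figure D3:**
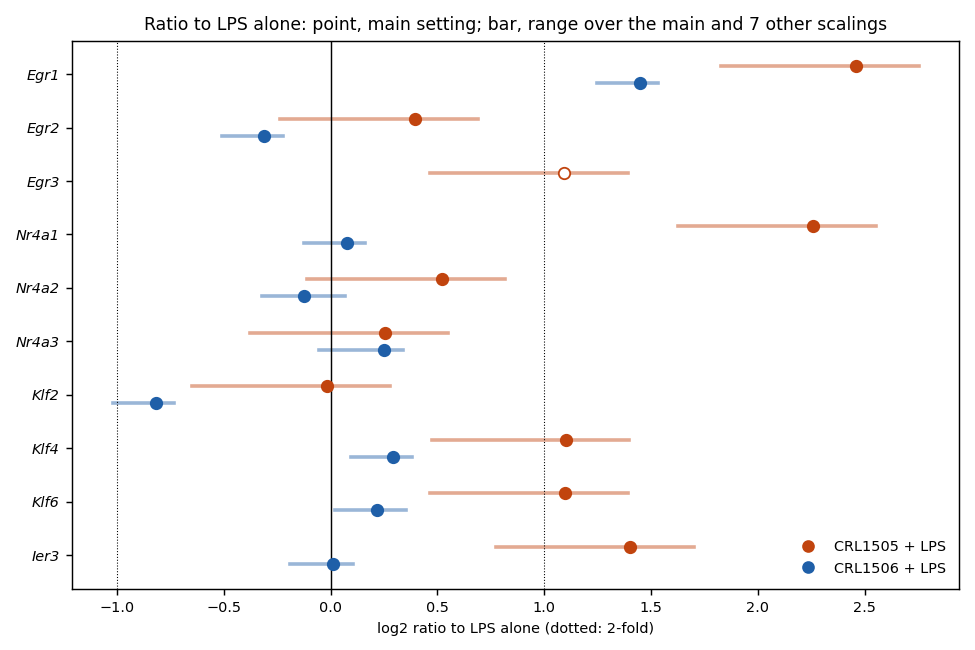
Log2 ratio to LPS alone for each gene, with a point for the main scaling, a bar for the range over the main and 7 other scalings, and an open point for a lower bound. With CRL1505 + LPS the bars of *Egr1* and *Nr4a1* lie wholly past 2-fold (dotted lines), with CRL1506 + LPS that of *Egr1* does, and *Egr3* could not be compared for CRL1506 + LPS.

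CRL1505 + LPS was then set against CRL1506 + LPS. All 10 genes had a log2 ratio above 0, as had 51.6% of all genes compared. Of the 10, 4 were at least 2-fold higher with CRL1505 + LPS. Both counts include *Egr3*, which was detected with CRL1505 + LPS alone and so could not have counted as lower there. *Nr4a3* was above 0 by only 0.003. When detection on every array was required, 3 of the genes were at least 2-fold higher, as were 7.09% of all genes then compared. The median log2 ratio of the 10 genes was 0.84, and that of all 15780 genes compared was 0.03. Of all genes compared, 9.02% were higher with CRL1505 + LPS by 2-fold or more and 7.47% were lower. *Nr4a1* differed the most, by 2.18 on the log2 scale (4.54-fold), followed by *Ier3* with 1.39 (2.63-fold). *Egr1* differed by 1.01 (2.02-fold), and *Egr3* was at least 2.02-fold higher with CRL1505 + LPS.

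The difference between strains was 0.88 for *Klf6*, 0.81 for *Klf4*, 0.80 for *Klf2*, 0.70 for *Egr2* and 0.64 for *Nr4a2*, all under 2-fold. For *Nr4a3* it was 0.00, well inside the spread between probes, and −0.51 under spike-in scaling. For *Nr4a1* the difference was at least 2-fold under all 7 other scalings and for *Ier3* under 6 of them, while for *Egr1* it was so under 1. The scaling moves all genes together here. By the median shift, all genes well above background on both arrays had a median log2 ratio of 0.58 between the strains, and by spike-in probes of −0.43. Relative to the median of all genes, *Egr1*, *Nr4a1* and *Ier3* were at least 2-fold higher with CRL1505 + LPS than with LPS under all 8 scalings, *Egr1* with CRL1506 + LPS, and *Nr4a1* and *Ier3* between the strains.

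**Figure D4:**
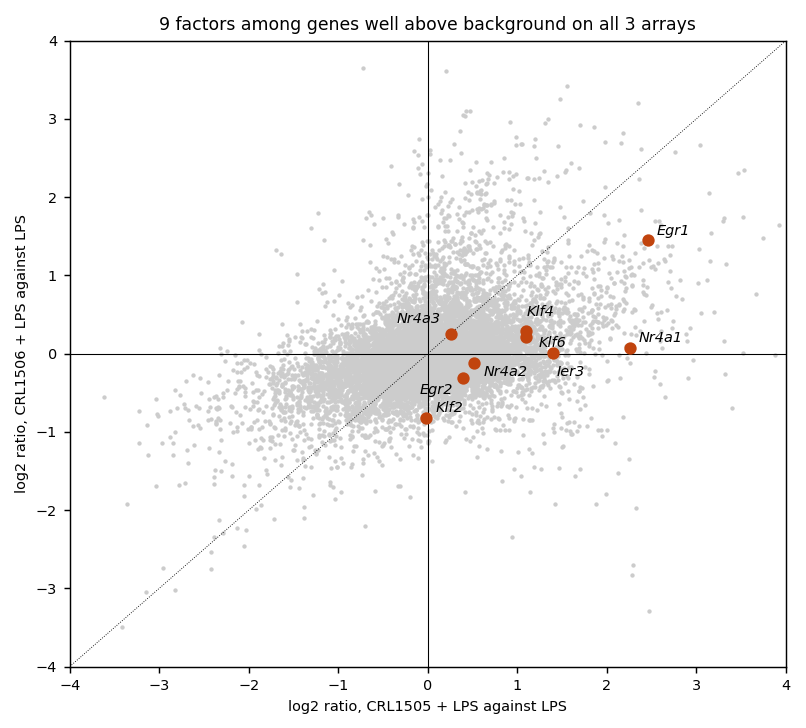
Log2 ratio to LPS alone with CRL1505 + LPS (horizontal) and CRL1506 + LPS (vertical) for genes detected well above background on each array, with 9 of the 10 genes in colour and all others in grey. Both axes use the same LPS array, the dotted line marks equal ratios, and 13 genes lie outside the axes. *Nr4a1* and *Ier3* lie along the horizontal axis, and *Egr1* is high on both.

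*Egr1* had the largest mean absolute log2 ratio over both strains. Among 13122 genes that every array detected well above background, the 5 nearest to it in the plane of the 2 ratios were *D130012P04Rik* (distance 0.05), *Klra2* (0.08), *Angptl6* (0.11), *Celsr2* (0.13) and *Hilpda* (0.21). These are distances on the log2 scale over 3 arrays, and with both ratios taken against the same LPS array they describe likeness only. At least 2-fold higher ratios with both strains were found for 169 genes, or 1.29%.

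Of 18 other members of the EGR, NR4A, KLF and IER families on the array, 12 could be compared, and none of them reached 2-fold with either strain. Their median log2 ratio was 0.16 for CRL1505 + LPS, with a range of −0.46 to 0.90, and −0.25 for CRL1506 + LPS, with 10 of 12 below 0, where 42.7% of all genes compared were above 0. Over the 8 scalings these medians lay between −0.47 and 0.49 and between −0.45 and −0.16, so only the latter kept its sign. Between the strains 3 of 12 were at least 2-fold higher with CRL1505 + LPS, as were 9.02% of all genes compared. The 3 were *Klf3* (1.20), *Ier5l* (1.14) and *Klf8* (1.05), named after their values were seen. The count was 0 to 5 over the scalings, and each of the 3 was under 2-fold at its lowest.

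Other immediate-early and early-response genes made up a list of 23 genes. With CRL1505 + LPS, 7 of 22 were higher by 2-fold or more and 2 were lower, with a median log2 ratio of 0.61 and 19 above 0. Of all genes compared, 9.93% were higher by 2-fold or more, 8.41% were lower and 50.7% were above 0. With CRL1506 + LPS, none of 23 reached 2-fold in either direction, the median was −0.14 and 17 were below 0. For that comparison 5.67% of all genes were higher by 2-fold or more, 3.53% were lower and only 42.7% were above 0. Over the 8 scalings the median with CRL1505 + LPS lay between −0.04 and 0.91, the count of higher genes between 3 and 10, and the median with CRL1506 + LPS between −0.34 and −0.06. Between the strains, 9 of 22 were at least 2-fold higher with CRL1505 + LPS and 1 was at least 2-fold lower. The shares of all genes compared were 9.02% and 7.47%. Over the scalings the counts of the list were 4 to 14 and 0 to 2.

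The list holds 4 phosphatase genes whose products switch off MAP kinases. *Dusp1* had intensities of 5011 with LPS, 14580 with CRL1505 + LPS and 7746 with CRL1506 + LPS, with log2 ratios of 2.06 and 0.72. *Dusp2* had 10329, 28844 and 7600 in the same order, with ratios of 2.01 and −0.35. *Dusp5* had 2144, 4067 and 1825, with ratios of 1.45 and −0.14. These 3 were thus at least 2-fold higher with CRL1505 + LPS in the main scaling, and only *Dusp1* of them was above LPS with CRL1506 + LPS. Over the scalings the lowest ratios with CRL1505 + LPS were 1.43 for *Dusp1*, 1.37 for *Dusp2* and 0.82 for *Dusp5*, the last under 2-fold. The fourth, *Dusp6*, named after its values were seen, did not reach 2-fold, and its log2 ratios of 0.43 and −0.32 lay below the medians of the list.

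*Fos*, a subunit of AP-1, had intensities of 981 with LPS, 2308 with CRL1505 + LPS and 1008 with CRL1506 + LPS. Its log2 ratios were 1.76 and 0.13. *Arc*, an early-response gene studied in neurons, had 1766, 3393 and 1059, with ratios of 1.47 and −0.65. With CRL1505 + LPS the lowest ratio over the scalings was 1.13 for *Fos* and 0.84, under 2-fold, for *Arc*. The 2 lower genes, named after their values were seen, were *Fosb* and *Trib1*. *Fosb*, another AP-1 subunit, was not well above background with CRL1505 + LPS and was at least 2.35-fold lower there. *Trib1*, a pseudokinase gene, was lower with both strains, with log2 ratios of −1.07 and −0.91. Over the scalings the ratio of *Trib1* with CRL1505 + LPS reached −0.78 and the bound of *Fosb* −0.48, both under 2-fold, and the count of lower genes was 0 to 3. Genes of AP-1 subunits thus lay on both sides of LPS with CRL1505 + LPS.

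**Figure D5:**
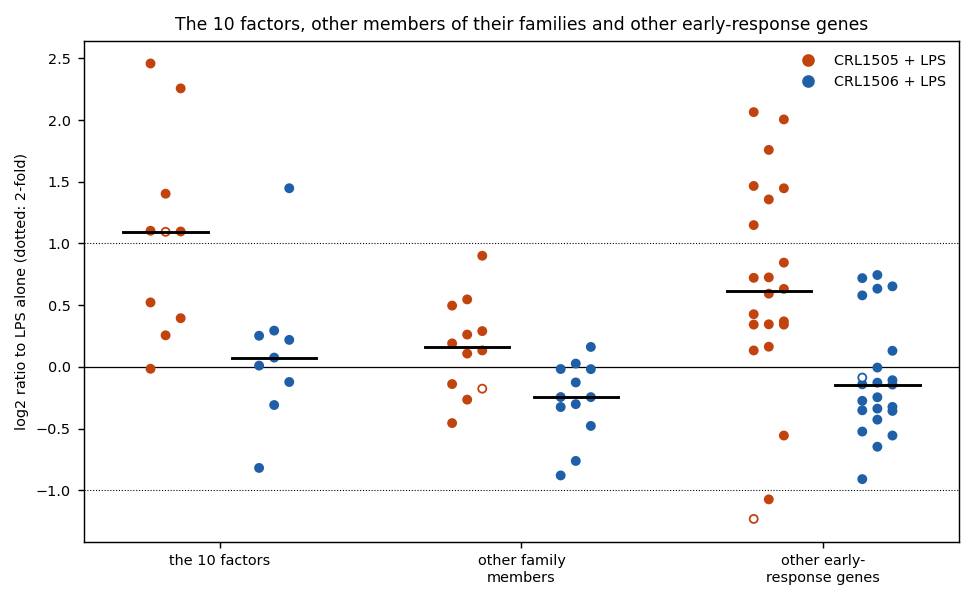
Log2 ratio to LPS alone of the 10 genes, of other members of their families and of other early-response genes, with 1 point per gene, open points for bounds and black bars for medians. The medians with CRL1505 + LPS are 1.10, 0.16 and 0.61, and with CRL1506 + LPS they are 0.07, −0.25 and −0.14.

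Genes of factors that act on or with these proteins showed few changes of 2-fold. Such changes were few among all genes too. With CRL1505 + LPS 9.93% were higher by 2-fold or more and 8.41% were lower, and with CRL1506 + LPS 5.67% and 3.53%. None of 6 genes of the CREB family and its coactivators reached 2-fold in any comparison under the main scaling. Of SRF and its partners, *Mkl1*, a coactivator of SRF, was lower with CRL1505 + LPS, with intensities of 7551 with LPS, 2576 with CRL1505 + LPS and 5712 with CRL1506 + LPS and log2 ratios of −1.03 and −0.31. Over the scalings the former reached −0.73, under 2-fold. The other 4 of this list that could be compared did not reach 2-fold with CRL1505 + LPS, and none of 6 did with CRL1506 + LPS.

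Of 5 genes of the MEF2 factors and the MAP kinase cascade that control *Klf2*, 1 was at least 2-fold lower with CRL1505 + LPS and none with CRL1506 + LPS. This was *Mef2c*, with intensities of 1958 with LPS, 222 with CRL1505 + LPS and 967 with CRL1506 + LPS and log2 ratios of −2.62 and −0.93. With CRL1505 + LPS the ratio of *Mef2c* lay between −3.25 and −2.30 over the scalings, and a link of its level to that of *Klf2* was not tested. *Rxra*, a retinoid receptor gene whose product can pair with NR4A proteins, had intensities of 5306, 1249 and 5391 and log2 ratios of −1.56 and 0.11. *Nab2*, a corepressor of EGR proteins and itself an EGR target, had intensities of 7085, 4670 and 2915 and log2 ratios of −0.08 and −1.19. In the main scaling *Nab2* was the only gene of these lists at least 2-fold lower with CRL1506 + LPS. A link of its level to that of *Egr1* was not tested.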

How the data were processed

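RNA of RAW macrophages was measured on 3 Agilent SurePrint G3 Mouse GE arrays, 1 per condition. The authors deposited the Feature Extraction intensity of each spot (version 12.0.3.1 in the files, probes placed on mm9), background-subtracted and not normalized between arrays. They also deposited a table of log2 values, normalized between arrays, with a median of 6.77 on each.

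From the log2 processed signal the 75th percentile over 59305 gene spots was subtracted per array. Outlier spots were left out (241 to 467 per array), and no gene spot was saturated. A gene was its brightest probe. Where 1 side was not well above background (48.5% to 55.3% of gene spots were), the ratio was taken as a bound against the higher of the lowest intensity well above background on that array and the probe's own. The 2-fold threshold is that of the study, whose t-test could not be run without replicates. The number of arrays limits the precision.

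All 10 genes were named, and of each list up to 5 genes at or past 2-fold per strain, those furthest from LPS, with others named after their values were seen where the text says so. The genes, lists and tests were chosen with earlier results of these data known. The 7 other scalings were the median shift, quantile, cyclic loess, the 75th percentile of probes detected on all arrays, spike-in probes, normexp with quantile, and the deposited table. Probe choice, filters, outlier or uneven spots and thresholds were also varied. The procedure was tested on simulated data made from copies of the LPS array, with changes added to bright probes only. These held no array shift, slide effect or bounds, so the test does not cover them. Promoter windows were taken from RefSeq (GRCm38.p6). Those of the 10 genes on chromosome 18, where *Egr1* lies, were left out, and *Egr3* had none. Python 3.11.15, pandas 2.3.3, NumPy 2.4.6, matplotlib 3.10.9, R 4.3.3 and limma 3.58.1 were used.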

Additional observations from a re-analysis of the deposited data

How the results depend on the processing

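Every count rests on 1 array per condition, so no array could be left out. No paired analysis was possible because each condition had 1 array. Over 12 alternatives, 286 ratios of single genes stayed within the SD between probes of the main value, 56 moved further and no ratio past 2-fold changed its sign. The median shift and spike-in scaling moved 20 of 29 ratios each. They also moved the median log2 ratio of all genes, from 0.06 to 0.35 and −0.57 for CRL1505 + LPS and from −0.06 to −0.26 and −0.18 for CRL1506 + LPS. The share of higher genes among those at or past 2-fold went from 54.1% to 76.1% and 14.8% for CRL1505 + LPS, from 61.6% to 43.4% and 52.0% for CRL1506 + LPS, and from 54.7% to 89.0% and 17.2% between the strains. Of the 10 genes, 6 were at least 2-fold higher with CRL1505 + LPS than with LPS in the main scaling. The count was 5 with quantile, cyclic loess, only probes detected on all arrays, or uneven spots left out. It was 4 with normexp and the deposited table, 3 with the 75th percentile of probes detected on all arrays, 2 with spike-in scaling and 2 at a 4-fold threshold. With CRL1506 + LPS, the 1 higher gene became 0 at 4-fold, and *Klf2* gave 1 lower gene in place of 0 under the median shift and at a 1.5-fold threshold. Between the strains, the 4 higher genes became 9 under the median shift and at 1.5-fold. They became 3 with quantile, cyclic loess, only probes detected on all arrays, or uneven spots left out. The count was 2 with the 75th percentile of detected probes, normexp and the deposited table, and 1 with spike-in scaling and at 4-fold. With uneven spots left out, *Egr3* had no value and *Klf2* none against LPS. Intensities near background limited *Egr3* to a bound.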
